A study of Caenorhabditis elegans with 54 samples.

Results

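The comparison set adult Caenorhabditis elegans that lack both sosi-1 and eri-6[e-f] against animals that lack eri-6[e-f] alone, with mut-16 intact in both strains. It was chosen by genotype and not by any measured value. The 12 libraries compared, of 54 in the series, were 3 of small RNA and 3 of mRNA from each strain. The animals that lack both genes, called the double deletion here, were strain USC1338, with the sosi-1 and eri-6[e-f] deletions together on chromosome I under the allele name cmp263. The eri-6[e-f] animals were strain USC1332, with the allele cmp261 on the same chromosome. Both strains therefore carried a deletion of eri-6[e-f], made as separate alleles, and no wild-type library entered the comparison. Each sample was about 8000 whole animals, grown at 20 °C and harvested at about 64 h as day 1 adults. Small RNA of 18 to 30 nt was selected on gels and mRNA was selected with oligo-dT beads, and both were read as single 75-nt reads. The labels do not say that the 3 libraries of a strain came from separate cultures, so p-values measure the spread between these samples only. Each genotype was also a single strain, so a difference between genotypes and any other difference between the strains cannot be told apart. In whole animals, fewer cells of a type and less RNA per cell cannot be told apart either.

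22G-RNAs are short antisense RNAs that RNA-dependent RNA polymerases make from the transcripts of their targets and that Argonaute proteins of the WAGO class use to silence those targets. In the germline this amplification takes place in mutator foci, which MUT-16 nucleates. A separate primary class, the 26G-RNAs, is made by the ERI complex and bound in oocytes and embryos by the Argonaute ERGO-1, and its targets are then covered by 22G-RNAs. The eri-6/7 helicase acts in that ERGO-1 branch, and its messenger RNA is joined by trans-splicing from transcripts of the eri-6 and eri-7 genes. The eri-6 gene has several isoforms, of which eri-6[e-f] are 2, and sosi-1 is a small gene beside them. The question the comparison addresses is what the loss of sosi-1 adds once eri-6[e-f] is already gone.

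Depth was 17.49 to 20.8, in units of 1e6 counts, in the double-deletion small RNA libraries and 11.76 to 19.22 in those of eri-6[e-f]. The mRNA libraries held 24.05 to 93.98 of these units in the double deletion and 13.22 to 17.57 in eri-6[e-f], so that depth and strain cannot be told apart there. Levels below are CPM, counts scaled to a common library total, after TMM scaling, not corrected for length, and are compared between libraries but not between genes. A feature was called where the edgeR quasi-likelihood test gave a Benjamini-Hochberg adjusted p below 0.05 over all features tested and the difference was at least 2-fold. Log2 differences are the double deletion over eri-6[e-f] and are given with their standard error. The small RNA libraries correlated at 0.983 or more across features. In mRNA the third eri-6[e-f] library correlated at 0.963 with the second of its own strain and at 0.968 to 0.969 with the 3 double-deletion libraries. The second eri-6[e-f] small RNA library held more reads of abundant somatic transcripts than the others. Values without either library are given beside many, but not all, of the results that they change.

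Small RNA showed the sosi-1 deletion directly. sosi-1 had 16, 25 and 7 small RNA counts in the double-deletion libraries, against 14027, 13981 and 8816 in those of eri-6[e-f]. Its level was 0.759, 1.3 and 0.393 CPM in double-deletion animals and 694, 698 and 708 CPM in eri-6[e-f] animals, a log2 difference of -9.72 ± 0.27 (adjusted p = 7.7e-17). The groups were far apart in all 6 libraries. As mRNA the gene was near the limit of detection even where it was present, with 0, 0 and 0 counts in the double deletion and 2, 0 and 3 in eri-6[e-f], so the mRNA libraries hardly test the deletion. That call ended without the first double-deletion library, without the first or the third eri-6[e-f] library, and at equal depth.

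The rest of the locus differed less. The files hold 2 further entries named for this locus, eri.67 and eri6.1, and the bases that they cover were not given in the sources used here. Small RNA on eri.67 stood at 76, 68.3 and 71.2 CPM in double-deletion animals, against 111, 109.5 and 110 CPM in eri-6[e-f] animals. That difference of -0.62 ± 0.07 passed the test (adjusted p = 1.38e-05) but was under 2-fold, and the groups did not overlap. Its mRNA had 44.5, 41.1 and 37 CPM in double-deletion animals and 51.2, 34.2 and 37.2 CPM in eri-6[e-f] animals, overlapping values with a log2 difference of 0.00 ± 0.22. The entry eri6.1 showed the reverse order of assays. Its small RNA overlapped between the strains, at 87.4, 64.6 and 66.9 CPM in the double deletion and 77.6, 55.8 and 41.4 CPM in eri-6[e-f]. Its mRNA was called higher, by 2.14 ± 0.40 (adjusted p = 0.000823), on 36, 26 and 12 counts in the double deletion and 3, 1 and 1 counts in eri-6[e-f]. mut-16, intact in both, had 222, 229 and 224 CPM of small RNA in the double deletion and 212, 203 and 206 CPM in eri-6[e-f], and its mRNA difference of -0.32 ± 0.31 did not pass. Of the genes listed as neighbours of the locus, 13 were tested in small RNA and 14 in mRNA. edgeR and DESeq2 called 0 of them in either assay. At an unadjusted p below 0.05, 1 was higher in small RNA, where 13.9% of all features were higher and 7.07% lower, and 4 were higher and 3 lower in mRNA, where 24.6% of all features were higher and 21.7% lower.

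**Figure D1:**
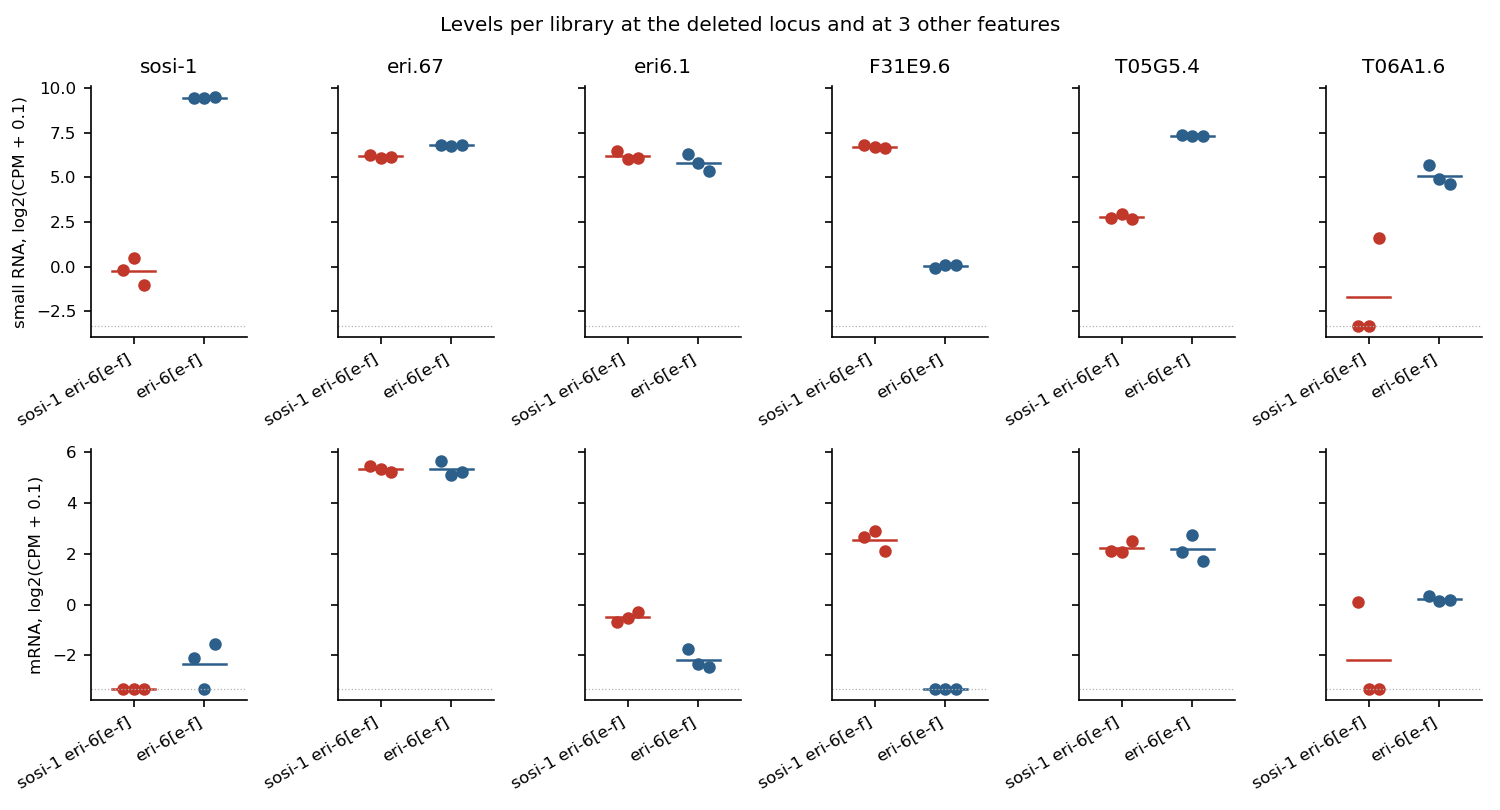
Level in each library of small RNA (upper row) and mRNA (lower row) for 3 entries of the deleted locus and 3 other features, as log2(CPM + 0.1), with the double deletion (labelled sosi-1 eri-6[e-f]) in red on the left of each panel and eri-6[e-f] in blue on the right, bars at the mean of the log values and a dotted line at 0 CPM. sosi-1 small RNA is near the bottom of its panel in double-deletion animals, F31E9.6 shows the opposite order in both assays, and T05G5.4 differs in small RNA alone.

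Among features with a mean of at least 10 CPM, small RNA rose most on F31E9.6, a protein-coding gene on chromosome V. It was at 111, 103.7 and 98.8 CPM in double-deletion animals and at 0.842, 0.948 and 0.964 CPM in eri-6[e-f] animals, a log2 difference of 6.83 ± 0.16 (adjusted p = 3.2e-18). Its mRNA had 428, 319 and 70 counts in double-deletion libraries and 0, 0 and 0 in eri-6[e-f] libraries. Against a floor of 3 counts over the eri-6[e-f] group the mRNA was at least 69.4-fold higher. The call held in both assays in every alternative run, scaling to microRNA counts included. The neighbouring noncoding gene F31E9.11, chosen after its values were seen, had 4.03, 2.50 and 4.33 CPM of small RNA in double-deletion animals and 0 in the 3 eri-6[e-f] libraries. The mRNA was not detected in every strain that lacks sosi-1. F31E9.6 had 2.74 to 3.30 CPM of mRNA in the 3 libraries that lack sosi-1, eri-6[e-f] and mut-16, where its small RNA was at 2.62 to 3.23 CPM, and 0 counts of mRNA in the 3 libraries that lack sosi-1 alone.

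Features that lost small RNA included several of high level with close replicates. T05G5.4, a protein-coding gene on chromosome III, had 6.36, 7.45 and 6.13 CPM in double-deletion animals, against 165, 160 and 157 CPM in eri-6[e-f] animals (log2 difference -4.59 ± 0.11, adjusted p = 3.2e-18). Its mRNA was at 4.28, 4.11 and 5.63 CPM in double-deletion animals and 4.12, 6.61 and 3.22 CPM in eri-6[e-f] animals, an overlap of the groups with a difference of 0.01 ± 0.28. Small RNA of F36A2.3, on chromosome I, fell to 35.1, 36.2 and 36.4 CPM in double-deletion animals, against 284, 283 and 276 CPM in eri-6[e-f] animals (-2.97 ± 0.10). The mRNA of F36A2.3 differed by -0.67 ± 0.20, an adjusted p of 0.0119 at under 2-fold.

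Another large difference was called in every leave-one-out fit, but the libraries within a strain were uneven. T06A1.6, a pseudogene on chromosome V, had small RNA counts of 0, 0 and 52 in double-deletion libraries and 1053, 590 and 311 in eri-6[e-f] libraries, and was called at -5.30 ± 0.55. Its mRNA counts were 68, 0 and 0 in the double deletion and 18, 10 and 13 in eri-6[e-f]. The double-deletion small RNA library with reads was thus the third and the mRNA library with reads the first. Without the third small RNA library the double-deletion group was entirely at 0.

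Across small RNA, 48 of 15380 features were called higher in double-deletion animals, 0.312% of those tested, and 138 were called lower, 0.897%. The median difference over all features was 0.01, and groups did not overlap in 36.5% of them. Most of the called features were low. With a mean of at least 10 CPM, 12 of 7037 features were higher and 49 lower. By class of gene, the features called higher were 24 protein-coding genes, 21 noncoding RNA genes, 2 small nuclear RNA genes and 1 pseudogene. The features called lower held 96 protein-coding genes, 21 of the 980 pseudogenes tested and 17 of the 385 noncoding RNA genes tested. On chromosome X 1.58% of features were called lower and on chromosome V 1.21%, against 0.63% to 0.783% on each of the other 4 chromosomes, and 4 features of X were called higher. With a mean of at least 10 CPM the share lower was 1.91% on X, 0.809% on V and 0.417% to 0.788% on the others, so chromosome I, at 0.788%, was then close to V.

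Among features with a mean of at least 10 CPM, the largest gain of small RNA after F31E9.6 was that of nlp-40, which encodes a neuropeptide-like protein that the intestine releases to time the defecation rhythm. It had 47, 42.4 and 42.7 CPM in double-deletion animals, against 7.92, 7.64 and 8.75 CPM in eri-6[e-f] animals (2.45 ± 0.17, adjusted p = 1.5e-09). Its mRNA did not follow, at 464, 422 and 493 CPM in double-deletion animals and 507, 601 and 379 CPM in eri-6[e-f] animals. tln-1, which encodes talin, the link between integrins and actin, had 353, 360 and 354 CPM of small RNA in double-deletion animals and 130, 124 and 140 CPM in eri-6[e-f] animals (1.44 ± 0.06). The groups of both genes were well apart.

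Smaller gains were found for cutl-10, a cuticlin-like gene, at 79.4, 80.7 and 83.7 CPM in double-deletion animals and 35, 33.4 and 29.4 CPM in eri-6[e-f] animals (1.31 ± 0.10). dyf-3, needed for sensory cilia, stood at 53.9, 54.1 and 52.6 CPM in double-deletion animals and at 23.5, 22.1 and 23.8 CPM in eri-6[e-f] animals (1.21 ± 0.17). jip-1, which encodes a scaffold of JNK signalling, rose by 1.16 ± 0.07, and cdk-14, a kinase gene, by 1.06 ± 0.14. The noncoding gene Y69A2AR.38 rose by 1.74 ± 0.20. Less certain were Y54E2A.9, at 1.89 ± 0.52, whose call ended in 5 of the 6 leave-one-out fits, and R03D7.2, at 1.01 ± 0.10, whose value lies at the 2-fold limit and fell below it in 3 of those fits.

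With the 2-fold limit, losses of small RNA were more numerous than gains, but by the adjusted p alone 1153 features were higher and 386 lower. arl-13, which encodes a small GTPase of cilia, was at 15.5, 15.4 and 12.6 CPM in double-deletion animals, against 86.1, 89.6 and 91.9 CPM in eri-6[e-f] animals (-2.62 ± 0.14). irx-1, an Iroquois homeobox gene, had 19.4, 17.6 and 19.2 CPM in double-deletion animals and 110, 108 and 103.5 CPM in eri-6[e-f] animals (-2.52 ± 0.11). rft-1, a riboflavin transporter gene, had 30.8, 29.4 and 28.6 CPM in double-deletion animals and 119, 117 and 117 CPM in eri-6[e-f] animals (-1.99 ± 0.09). In each of these the spread within a strain was small beside the difference. Y39B6A.41 fell by 2.24 ± 0.09 on the log2 scale, F45B8.5 fell by 1.78 ± 0.18, and F23C8.8 fell by 1.63 ± 0.10. Among noncoding genes C28G1.8 fell by 2.88 ± 0.30, C10G8.9 by 2.66 ± 0.33 and F40H3.6 by 1.89 ± 0.17.

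**Figure D2:**
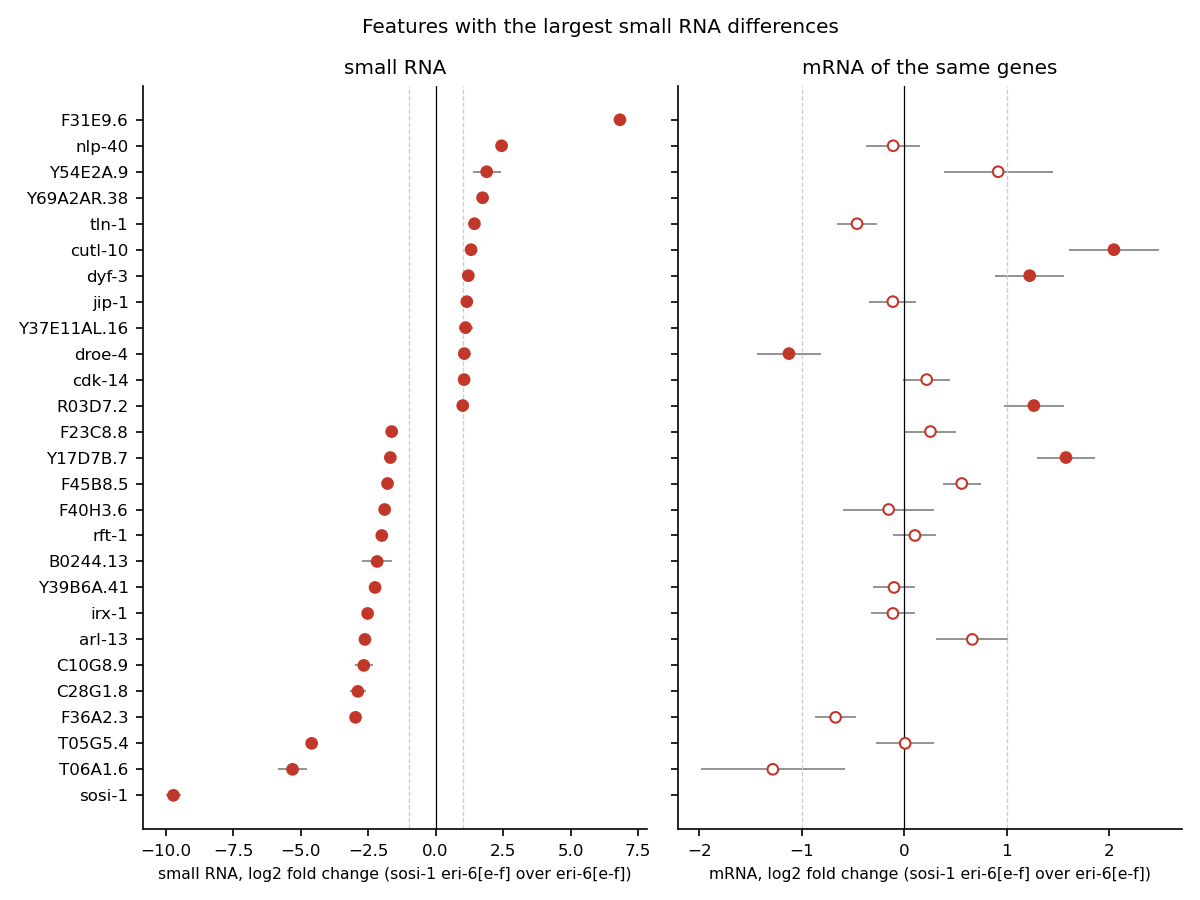
Log2 fold change, the double deletion over eri-6[e-f], in small RNA (left) and in mRNA of the same genes (right) for the features with the largest small RNA differences and a mean of at least 10 CPM, with standard errors, filled points where called and dashed lines at 2-fold. Points are left out where a feature was not tested or a strain was at 0, which removes the mRNA of F31E9.6 and sosi-1; most genes with called small RNA have open mRNA points near 0.

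Some small RNA calls ended when 1 library was left out. Of 13 intestine markers tested, asp-1, asp-3, cpr-1 and cpr-5, all genes of gut proteases, were called lower, and asp-1 had 2.56, 2.55 and 3.15 CPM in double-deletion animals and 7.57, 31.9 and 7.63 CPM in eri-6[e-f] animals. Of these 4 genes edgeR called 0 without the second eri-6[e-f] library, and also 0 without any 1 of the 3 double-deletion libraries. The asp-1 difference of -2.53 was -1.47 without the second eri-6[e-f] library. Summed small RNA of the intestine markers was 70.6, 69.9 and 70 CPM in double-deletion animals and 77.2, 129 and 75.9 CPM in eri-6[e-f] animals. The small RNA of the 6 vitellogenin genes, which encode yolk proteins, summed to 68.8 to 72.2 CPM in the double deletion and to 118, 320 and 118 CPM in eri-6[e-f], so all 3 eri-6[e-f] libraries were higher. Muscle markers summed to 206 to 210 CPM in the double deletion and to 186, 249 and 198 CPM in eri-6[e-f]. The part of this library's excess in other small RNA losses was not tested beyond the fits without it, in which 29 features were called higher and 94 lower.

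Genes recalled from the literature as targets of ERGO-1, the Argonaute of the branch in which eri-6/7 acts, had less small RNA in double-deletion animals. Of 26 on the list 24 were tested, and 3 of them, 12.5%, were called lower and 0 higher, with a median of -0.57 against 0.01 for all features. By the adjusted p alone 17 were lower and 1 higher, where 2.51% of all features were lower and 7.5% higher. E01G4.5 had 333, 428 and 427 CPM in double-deletion animals, against 1099, 1200 and 1128 CPM in eri-6[e-f] animals (-1.53 ± 0.11, adjusted p = 4.58e-09). F39F10.4 had 56.5, 59.7 and 57.9 CPM in double-deletion animals and 156, 171 and 147 CPM in eri-6[e-f] animals (-1.45 ± 0.09). Both pairs of groups were separate. T08B6.2 fell by 1.06 ± 0.18, a call that ended without the first eri-6[e-f] library. slfl-3 was the member that was higher, by 0.39 ± 0.06. Summed over the list, small RNA was at 5991, 6453 and 6343 CPM in double-deletion animals and at 10372, 10344 and 9908 CPM in eri-6[e-f] animals.

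Few mRNAs of these ERGO-1 targets were called. Of 21 tested, 9.52% were called higher and 4.76% lower, where 8.72% of all features were higher and 10.4% lower. T05E12.8 rose by 1.89 ± 0.34 and H09G03.1 by 1.27 ± 0.34, and W04B5.2 fell by 1.31 ± 0.33. The median was 0.53 against 0.06 for all features, but 0.25 in the fit of the 2 strains alone and 0.30 at equal depth. T05E12.8 had 1.54, 1.6 and 1.33 CPM in double-deletion animals, against 0.261, 0.701 and 0.322 CPM in eri-6[e-f] animals. E01G4.5 mRNA was at 6.59, 5.94 and 3.63 CPM in double-deletion animals and at 2.81, 4.10 and 3.38 CPM in eri-6[e-f] animals, a difference of 0.69 ± 0.23 that was under 2-fold.

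Small RNA on genes of the RNA interference machinery shifted little. edgeR called 0 of the 12 ERI and 26G-RNA genes, 20 mutator and 22G-RNA genes, 23 Argonaute genes, 16 nuclear RNA interference genes and 18 P granule and Z granule genes, and DESeq2 also called 0 in each list. At an unadjusted p below 0.05 those lists had 2, 9, 9, 8 and 13 members higher and 0, 0, 2, 1 and 0 lower, where 13.9% of all features were higher and 7.07% lower. By the adjusted p alone 12 of the 18 P granule and Z granule genes were higher, with a list median of 0.30. glh-1, a germline helicase gene of P granules, had 789, 846 and 857 CPM in double-deletion animals, against 537, 502 and 568 CPM in eri-6[e-f] animals (0.63 ± 0.11). pgl-1, which encodes a P granule scaffold, had 644, 665 and 652 CPM in double-deletion animals and 472, 437 and 443 CPM in eri-6[e-f] animals (0.54 ± 0.10). The piRNA Argonaute gene prg-1 differed by 0.55 ± 0.11 and csr-1, whose Argonaute binds 22G-RNAs of expressed germline genes, by 0.47 ± 0.09. These gains were under 2-fold, without overlap between the strains. With libraries scaled to microRNA counts, which moved the median of all features to 0.53, 0 of the P granule and Z granule genes passed. microRNAs took only 0.00467% to 0.00541% of counts in double-deletion libraries and 0.00632% to 0.0112% in eri-6[e-f] libraries. Under that scaling 3 features were called higher and 1 lower in all, and the median of the ERGO-1 targets was -0.05.

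The share of small RNA counts on each class of gene differed little and without overlap. Pseudogenes took 10.8% ± 0.0261 in double-deletion animals and 11.7% ± 0.0539 in eri-6[e-f] animals, and protein-coding genes 87.9% ± 0.0934 in double-deletion animals and 86.7% ± 0.0352 in eri-6[e-f] animals (SD, n = 3 each). An exact two-sided permutation test gave p = 0.1 for both, the smallest that 3 against 3 allows.

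mRNA differed far more widely than small RNA. Of 15376 features 1341 were called higher in double-deletion animals, 8.72%, and 1595 lower, 10.4%, with a median of 0.06 over all features. Groups did not overlap in 40.5% of features. Higher calls made up 45.7% of all calls, a split that depended on scaling and on the libraries in the fit. With library size as the only scaling 654 were higher and 2296 lower, 22.2% higher, with the median at -0.15, and in a fit of the 2 strains alone 503 were higher and 1582 lower, 24.1% higher. By chromosome, the share lower was 15.7% on V and 12.3% on X, against 6.34% to 10.4% on the other 4. The share higher was 7.49% on V and 5.28% on X, against 9.13% to 10.3% on the others. With a mean of at least 5 CPM the share lower was 12% on V and 10.4% on X, against 4.62% to 9.66% on the others. The share higher was then 9.64% on V and 4.21% on X, against 10.7% to 11.7%, so V was closer to the others. Ribosomal RNA took 3.65% ± 0.498 of mRNA counts in double-deletion animals and 5.75% ± 0.958 in eri-6[e-f] animals (SD, n = 3 each, exact permutation p = 0.1, adjusted p = 0.2).

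Cuticle genes led the mRNAs that were higher. Collagens with body shape phenotypes had 14 of 21 members higher, 66.7% against 8.72% of all features, and 1 lower, with a median of 1.97. The count of higher members was 11 to 14 over the scalings, tools and leave-one-out fits. rol-6 rose by 2.92 ± 0.53, with 6.57, 6.54 and 4.12 CPM in double-deletion animals and 0.915, 0.901 and 0.484 CPM in eri-6[e-f] animals. bli-1, a collagen gene of the struts of the adult cuticle, had 404, 230 and 44 counts in double-deletion libraries, against 3, 0 and 4 in eri-6[e-f] libraries (4.65 ± 0.58, and 5.30 without the third eri-6[e-f] library). dpy-13 and dpy-4 rose by 2.32 ± 0.50 and 2.62 ± 0.50. dpy-14 was the member that fell, by 2.21 ± 0.58, and its call ended without the second eri-6[e-f] library.

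Numbered collagens had 49 of 123 tested members higher, 39.8% against 8.72% of all features, and 1, col-135, lower, with a median of 0.76. Without the second eri-6[e-f] library 57 were higher and 1 lower, and without the third 38 were higher and 5 lower. col-73 had 29.8, 29.1 and 18.1 CPM in double-deletion animals, against 3.53, 5.81 and 1.85 CPM in eri-6[e-f] animals (2.81 ± 0.50). Genes of the molting cycle had 26 of 76 higher, 34.2% against 8.72% of all features, and 3 lower, with a median of 0.74 and 17 higher without the first eri-6[e-f] library. Among those higher were the hedgehog-related genes wrt-4, at 3.57 ± 0.58 and at 4.26 without that library, and grl-16, at 2.51 ± 0.49. nas-37, a metalloprotease gene needed to shed the old cuticle, fell by 1.04 ± 0.25, a call that ended in 3 of the 6 leave-one-out fits. Summed mRNA of the collagens with shape phenotypes did not overlap between the strains, at 118 to 185 CPM in double-deletion animals and 36.2 to 90.3 CPM in eri-6[e-f] animals. That of the numbered collagens did, at 34055 to 46935 CPM in double-deletion animals and 23084 to 61000 CPM in eri-6[e-f] animals.

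The largest mRNA increases among called features with a mean of at least 5 CPM and no overlap were those of Y47G6A.15 and E01G4.6. Y47G6A.15 had 19.2, 17.2 and 11.9 CPM in double-deletion animals, against 1.11, 1.40 and 0.322 CPM in eri-6[e-f] animals (4.11 ± 0.41, adjusted p = 1.53e-06). E01G4.6 had 19.1, 17.2 and 10.9 CPM in double-deletion animals and 0.915, 1.30 and 0.967 CPM in eri-6[e-f] animals (3.92 ± 0.40). Both were called in every alternative run. Small RNA of E01G4.6 was scarce in both strains, at 0.618 to 0.664 CPM in double-deletion animals and 0.599 to 1.29 CPM in eri-6[e-f] animals.

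Oocyte and eggshell genes were higher by a count that depended on the libraries. Of 31, 12 were called higher, 38.7% against 8.72% of all features, and 0 lower, with a median of 0.76. Only 1 was higher in the fit of the 2 strains alone, 7 without the first or the second eri-6[e-f] library and 15 without the third. puf-11, an RNA-binding protein gene of the germline, had 706, 721 and 392 CPM in double-deletion animals, against 105, 84.6 and 335 CPM in eri-6[e-f] animals (1.79 ± 0.37, and 2.68 without the third eri-6[e-f] library). pos-1, a maternal RNA-binding protein gene, had 1141, 1189 and 650 CPM in double-deletion animals and 187, 122 and 632 CPM in eri-6[e-f] animals (1.66 ± 0.38, and 2.69 without that library). In both genes the third library of each strain lay near the third of the other, the groups came close to overlap, and neither was called in the fit of the 2 strains alone. Ribosomal protein genes had 8 of 75 higher, 10.7% against 8.72% of all features, and a median of 0.68, with 0 higher under library size scaling, 2 without the first eri-6[e-f] library and 25 without the second. Histone genes had 9 of 64 higher, 14.1% against 8.72% of all features, and a median of 0.60. The count was 3 to 16 over the alternatives, with 3 under library size scaling. his-74, a histone H3 gene, had 700, 712 and 555 CPM in double-deletion animals and 189, 159 and 293 CPM in eri-6[e-f] animals (1.62 ± 0.23).

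Genes of infection responses and of detoxification led the mRNAs that were lower. Of 19 pals genes tested of 39 named, a family that intracellular infection induces, 13 were lower, 68.4% against 10.4% of all features, and 0 higher, with a median of -1.99. pals-26 had 0.612, 0.766 and 1.33 CPM in double-deletion animals, against 4.7, 29.1 and 3.79 CPM in eri-6[e-f] animals (-3.89 ± 0.57), and its difference was -2.35 without the second eri-6[e-f] library. Antimicrobial and infection response genes had 25 of 100 lower, 25% against 10.4% of all features, and 2 higher, with a median of -0.37 and 15 lower without that library. Their summed mRNA overlapped, at 10939 to 14022 CPM in double-deletion animals and 11265 to 21313 CPM in eri-6[e-f] animals. ilys-3, a lysozyme gene, had 1.37, 1.18 and 1.94 CPM in double-deletion animals and 26.9, 33.6 and 15.8 CPM in eri-6[e-f] animals (-4.13 ± 0.90). irg-1, an infection response gene, fell by 3.13 ± 0.40. Inducible heat shock genes had 3 of 16 lower, 18.8% against 10.4% of all features, and 0 higher. Their median of 0.08 was -0.46 without the third eri-6[e-f] library. Their summed mRNA was higher without overlap, at 3083 to 3646 CPM in double-deletion animals and 2081 to 2989 CPM in eri-6[e-f] animals.

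Detoxification genes, which are cytochromes P450, UDP-glycosyltransferases and glutathione S-transferases, had 60 of 158 lower, 38% against 10.4% of all features, and 5 higher. Their median was -0.72, with 46 to 71 lower over the alternatives. Their summed mRNA overlapped, at 3411 to 3629 CPM in double-deletion animals and 2923 to 3708 CPM in eri-6[e-f] animals. ugt-18 had 0.554, 0.557 and 0.303 CPM in double-deletion animals, against 13.7, 14.3 and 8.95 CPM in eri-6[e-f] animals (-4.60 ± 0.72). cyp-37B1 had 1.88, 1.67 and 1.09 CPM in double-deletion animals and 26.3, 33.9 and 20.2 CPM in eri-6[e-f] animals (-4.06 ± 0.75). The groups were separate in both. By the same limits the largest falls were those of F31C3.13, at -5.52 ± 0.89, and mtl-1, a metallothionein gene. mtl-1 was at 1.52, 1.21 and 1.76 CPM in double-deletion animals and at 75.5, 81.4 and 31.1 CPM in eri-6[e-f] animals (-5.41 ± 1.01, adjusted p = 0.000289). F31C3.13 and F31C3.15, both noncoding genes, were most abundant in the second eri-6[e-f] library, F31C3.15 with 0.860, 1.67 and 2.72 CPM in double-deletion animals and 17.8, 129 and 36.5 CPM in eri-6[e-f] animals. Without that library the differences were -3.27 for F31C3.13, -4.03 for F31C3.15 and -5.19 for mtl-1.

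Other large families had members lower. F-box genes had 54 of 195 lower, 27.7% against 10.4% of all features, and 10 higher, 5.13% against 8.72%. Their median was -0.53, and 70 were lower without the third eri-6[e-f] library. Nuclear hormone receptors had 48 of 192 lower, 25%, and 3 higher, 1.56%, with a median of -0.58. Without the third eri-6[e-f] library 66 of the receptors were lower and 11 higher. BATH and MATH genes had 19 of 68 lower, 27.9% against 10.4% of all features, and 7 higher, 10.3% and so near the 8.72% of all features. Their median of -0.08 was near that of all features. C-type lectins had 19 of 136 lower, 14% against 10.4% of all features, and 9 higher, 6.62% against 8.72%, and 10 were lower without the first or the second eri-6[e-f] library. Fat metabolism genes had 9 of 24 lower, 37.5% against 10.4% of all features, and 0 higher. Among those lower was lipl-1, a lysosomal lipase gene, at -3.49 ± 0.73. Neuropeptide and insulin genes had 12 of 124 lower and 2 higher, a share lower of 9.68% against 10.4% of all features, with 6 to 18 lower in the leave-one-out fits.

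**Figure D3:**
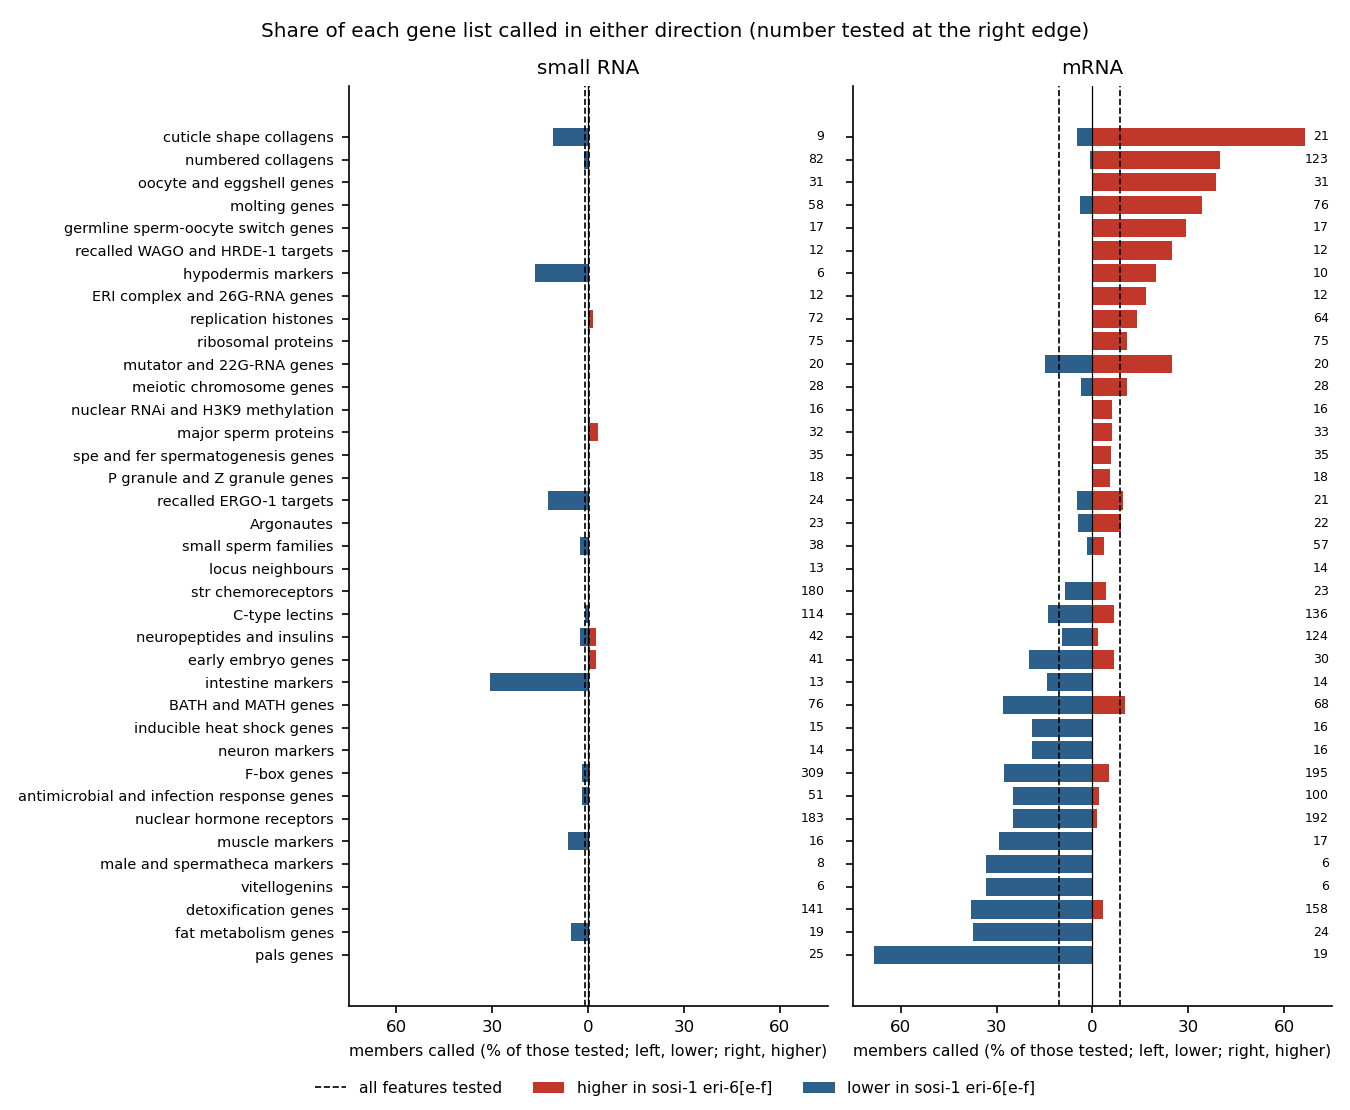
Share of the tested members of each gene list that were called higher (red, to the right) or lower (blue, to the left) in the double deletion than in eri-6[e-f] animals, in small RNA and in mRNA, with the number tested at the right edge and dashed lines at the share of all features. Cuticle collagens extend farthest to the right and pals genes farthest to the left in mRNA, while in small RNA most lists have no or few members called and the longest bar, the intestine markers, falls to 0 without the second eri-6[e-f] library or any 1 double-deletion library.

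Markers of cell types differed beside these groups, and their part in the differences was not tested. In mRNA 14.3% of intestine, 29.4% of muscle and 18.8% of neuron markers were called lower, against 10.4% of all features. Of hypodermis markers 20% were called higher, against 8.72% of all features. The intestine share was thus near that of all features. Of the intestine, muscle, neuron and hypodermis markers 0 were at 0 in all 6 libraries. Yolk protein genes had 2 of 6 lower, 33.3% against 10.4% of all features, with 1 to 5 in the leave-one-out fits. They summed to 44503 to 52815 CPM in double-deletion animals and to 76341 to 108232 CPM in eri-6[e-f] animals. vit-5 had 6999, 7506 and 8419 CPM in double-deletion animals, against 20690, 23889 and 15963 CPM in eri-6[e-f] animals (-1.40 ± 0.22). Muscle markers had 5 of 17 lower, with a median of -0.41 that was 0.12 without the second eri-6[e-f] library, among them the myosin genes unc-54, at -1.33 ± 0.36, and myo-3, at -1.57 ± 0.27. Summed mRNA of the muscle markers nevertheless overlapped, at 16981 to 23835 CPM in double-deletion animals and 15857 to 31181 CPM in eri-6[e-f] animals. Intestine markers had 2 of 14 lower, with 1 to 4 in the leave-one-out fits, and sums of 10144 to 14534 CPM in double-deletion animals and 12023 to 28536 CPM in eri-6[e-f] animals. Neuron markers had 3 of 16 lower, and 5 without the third double-deletion library, among them unc-13, a gene of synaptic vesicle priming, at -1.98 ± 0.36. Hypodermis markers, the tissue that makes the cuticle, had 2 of 10 higher, both of them collagens also in the cuticle lists, and sums of 1289 to 2163 CPM in double-deletion animals and 1137 to 3845 CPM in eri-6[e-f] animals. Oocyte and eggshell genes summed to 10727 to 14927 CPM in double-deletion animals and to 6279 to 9109 CPM in eri-6[e-f] animals, without overlap. Major sperm protein genes had 2 of 33 higher, 6.06% against 8.72% of all features, with 9 higher without the first eri-6[e-f] library. Early embryo genes had 2 of 30 higher and 6 lower, 6.67% and 20% against 8.72% and 10.4%, with 5 higher without the third eri-6[e-f] library and 2 to 8 lower over the leave-one-out fits.

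**Figure D4:**
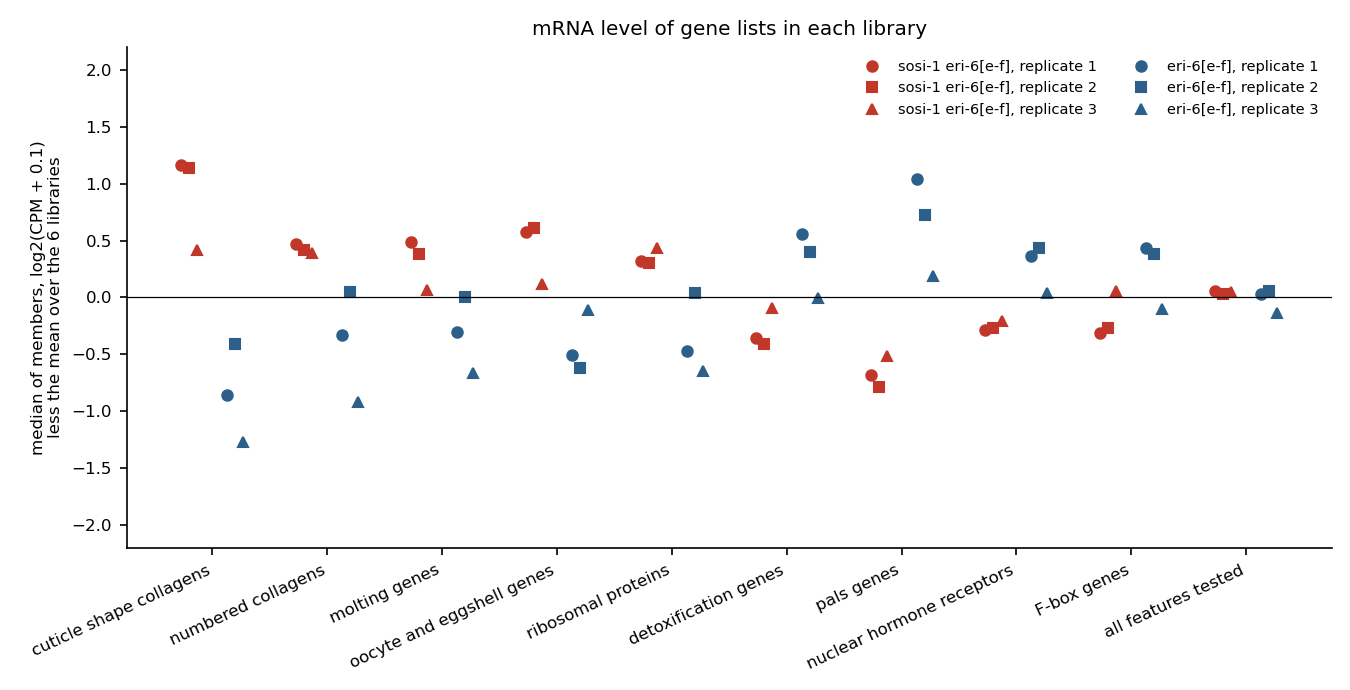
Median over the tested members of each list of the mRNA level in a library, as log2(CPM + 0.1) less the gene's mean over the 6 libraries, with the double deletion in red on the left, eri-6[e-f] in blue on the right and a symbol for each replicate. The third double-deletion library lies nearer to eri-6[e-f] than the other red points in the collagen shape, molting, oocyte, detoxification, pals and F-box lists, and for F-box genes the third libraries of the strains change places.

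The mRNA of some genes of the small RNA machinery was called, in either direction. Of 20 mutator and 22G-RNA genes 5 were higher and 3 lower, 25% and 15% against 8.72% and 10.4% of all features. Their median was 0.14, and -0.13 with library size scaling. Those that were higher were mut-14, a helicase gene, at 1.05 ± 0.25, mut-15, at 1.02 ± 0.30, nyn-1 and nyn-2, which encode nuclease-like proteins, at 1.43 ± 0.31 and 1.36 ± 0.33, and rde-11, at 1.30 ± 0.30. Those that were lower encode RNA-dependent RNA polymerases. rrf-1 had 14.6, 16.3 and 15.6 CPM in double-deletion animals, against 33.5, 24.1 and 58.4 CPM in eri-6[e-f] animals (-1.32 ± 0.39). ego-1, the germline polymerase, fell by 1.14 ± 0.38 and rrf-2 by 1.01 ± 0.36, calls that ended in 4 and 5 of the 6 leave-one-out fits. These counts depended on the libraries and the scaling. Without the third eri-6[e-f] library 7 of the 20 were higher and 0 lower, with nyn-1 at 2.17, nyn-2 at 2.14, rde-11 at 1.95 and mut-15 at 1.77, in the fit of the 2 strains alone 0 were higher and 3 lower, and with library size scaling 3 were higher and 4 lower. rde-1, the Argonaute of exogenous RNA interference, fell by 1.09 ± 0.31, a call that also ended without that library.

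Elsewhere in the pathway few members were called. Those called higher were 16.7% of ERI and 26G-RNA genes and 9.09% of Argonaute genes, against 8.72% of all features. The shares were 6.25% for nuclear RNA interference genes and 5.56% for P granule and Z granule genes, below that of all features. Of 12 ERI and 26G-RNA genes alg-3 and alg-4, Argonaute genes of spermatogenesis, were higher, at 1.40 ± 0.41 and 1.56 ± 0.46, and on the list of 22 Argonaute genes they were the 2 that were higher. alg-3 overlapped between the strains, at 1.31, 1.28 and 0.545 CPM in double-deletion animals and 0.653, 0.400 and 0.161 CPM in eri-6[e-f] animals. Its call ended in the fit of the 2 strains alone and without the third eri-6[e-f] library, and its difference was 2.05 without the first. The alg-4 call ended without the second. Of 16 nuclear RNA interference genes hrde-2, which helps load the nuclear Argonaute HRDE-1, rose by 1.33 ± 0.24, and of 18 P granule and Z granule genes mip-1 rose by 1.36 ± 0.34, and by 2.21 without the third eri-6[e-f] library, where 6 members of each list were higher. ergo-1 and hrde-1 differed by 0.21 ± 0.31 and 0.46 ± 0.33 and did not pass. For 12 genes recalled as WAGO or HRDE-1 targets, some of them chosen from the effect of mut-16 in these libraries, the median was 0.71. It was 0.24 in the fit of the 2 strains alone and 0.40 at equal depth. Of these genes 3 were higher, 25% against 8.72% of all features, a share that is no independent test given how members were chosen. They were ZC15.3, at 2.03 ± 0.70 with a call that ended in 5 of the 6 leave-one-out fits, and F07B7.2 and W09B7.2, both at 1.31 ± 0.28 with the same values in each library, so reads of these near-identical copies may have been split between them.

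Set side by side, the assays met in few genes. Of 12920 features tested in both, 23 had small RNA called higher and 103 lower, and 38 features, 0.294%, were called in both assays. Another 60 features with called small RNA and 566 with called mRNA were below the filter in the other assay. Differences in small RNA and mRNA had a Pearson r of 0.12 across these 12920 genes, which share strains but not libraries and are not independent. Of the 23 features with more small RNA, 7 had more mRNA, 30.4%, and 2 had less, 8.7%. Of the 103 with less small RNA, 10 had more mRNA, 9.71%, and 19 had less, 18.4%. Among all features tested in both, mRNA was higher in 9.3% and lower in 9.05%. The median mRNA difference was 0.69 for features with more small RNA, -0.15 for features with less, and 0.15 for all. From the side of mRNA, the 1201 features called higher had a median small RNA difference of 0.06 and the 1169 called lower one of -0.12.

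Small RNA and mRNA rose together for F31E9.6 and for 6 further features. cutl-10 mRNA had 0.903, 1.18 and 0.908 CPM in double-deletion animals, against 0.0653, 0.200 and 0.484 CPM in eri-6[e-f] animals (2.04 ± 0.44, and 3.04 without the third eri-6[e-f] library). dyf-3 mRNA rose by 1.22 ± 0.34, but the third libraries of the strains overlapped, at 8.70, 7.73 and 4.48 CPM in double-deletion animals and 1.96, 2.30 and 4.84 CPM in eri-6[e-f] animals, and the call ended in the fit of the 2 strains alone and without the first eri-6[e-f] library. R03D7.2 and the F-box pseudogene fbxa-180 were also higher in both, fbxa-180 by 2.46 ± 0.36 in small RNA and 4.38 ± 0.66 in mRNA, a value of 7.36 without the third eri-6[e-f] library. The remaining members, B0207.7 and Y37E11AL.2, named after their values were seen, had means of 0.297 and 0.673 CPM of small RNA, and their small RNA calls ended in 3 and 4 of the 6 leave-one-out fits.

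Less small RNA with more mRNA was found for 10 features, of which Y17D7B.7 and F56D6.16, both pseudogenes, had the highest levels. Small RNA of Y17D7B.7 was at 103, 106 and 107 CPM in double-deletion animals and at 353, 345 and 312 CPM in eri-6[e-f] animals (-1.68 ± 0.13). Its mRNA was at 33.7, 37.5 and 47.3 CPM in double-deletion animals, against 11.5, 19 and 9.35 CPM in eri-6[e-f] animals (1.58 ± 0.28). Both assays separated the strains in opposite directions. F56D6.16 had 203, 201 and 210 CPM of small RNA in double-deletion animals and 557, 535 and 506 CPM in eri-6[e-f] animals (-1.38 ± 0.10). Its mRNA was at 23.5, 23.9 and 35.0 CPM in double-deletion animals and at 8.49, 12.3 and 4.43 CPM in eri-6[e-f] animals (1.71 ± 0.30). T02G6.10, also a pseudogene, differed by -1.15 ± 0.12 in small RNA and 1.34 ± 0.32 in mRNA, and C18D4.12 by -1.04 ± 0.10 in small RNA and 2.14 ± 0.39 in mRNA, which was 2.74 without the second eri-6[e-f] library. The other 6 had a mean of under 1 CPM of small RNA.

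Less of both was found for 19 features, sosi-1 among them. Y51B9A.9 differed by -1.51 ± 0.24 in small RNA and -2.64 ± 0.37 in mRNA, and Y38C1AA.6 by -1.08 ± 0.19 in small RNA and -2.37 ± 0.33 in mRNA, with a small RNA call that ended without the first eri-6[e-f] library. The F-box gene fbxa-61 differed by -1.15 ± 0.12 in small RNA and -1.49 ± 0.31 in mRNA, and fbxa-24 by -1.14 ± 0.18 in small RNA and -1.04 ± 0.37 in mRNA, with an mRNA call that ended in 3 of the 6 leave-one-out fits. Gut protease genes were among them as well. cpr-4 had 1.14, 0.990 and 1.85 CPM of small RNA in double-deletion animals and 5.79, 15.4 and 5.14 CPM in eri-6[e-f] animals, and its small RNA call ended without the second eri-6[e-f] library and without the first or the second double-deletion library. Without the second eri-6[e-f] library in either assay 4 features were lower in both. The reverse pair, more small RNA and less mRNA, held droe-4 and F43H9.4, whose small RNA calls ended in 1 and in 6 of the 6 leave-one-out fits. droe-4 had 21.7, 20.2 and 18.5 CPM of small RNA in double-deletion animals and 9.70, 9.18 and 10 CPM in eri-6[e-f] animals (1.06 ± 0.23), and 2.61, 2.97 and 3.21 CPM of mRNA in double-deletion animals and 6.99, 7.31 and 4.76 CPM in eri-6[e-f] animals (-1.13 ± 0.31).

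**Figure D5:**
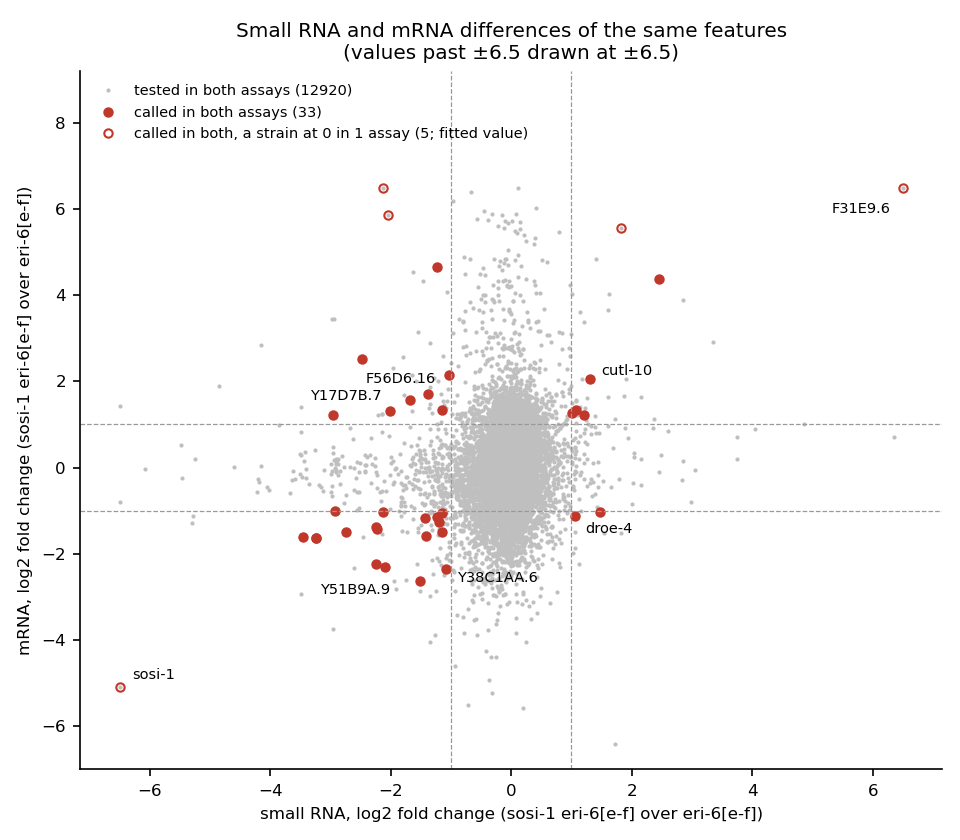
Log2 fold change in small RNA (horizontal) and mRNA (vertical), the double deletion over eri-6[e-f], of the 12920 features tested in both assays (grey), with the 33 called in both (filled red), the 5 called in both with a strain at 0 in 1 assay (open red, fitted values that are no measured fold) and dashed lines at 2-fold; values past 6.5 are drawn at 6.5. The cloud is tall and narrow, and the features called in both lie in all 4 corners.

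Few members of the lists with large mRNA differences were called in small RNA. Of 82 numbered collagens tested in small RNA edgeR called 0 higher and 1 lower, with 1 and 17 at an unadjusted p below 0.05, and DESeq2 called 0 higher and 3 lower. The collagen called lower, col-119, had 0.237, 0.156 and 0.393 CPM of small RNA in double-deletion animals and 0.842, 13 and 0.562 CPM in eri-6[e-f] animals. Its difference of -4.22 was -1.46 without the second eri-6[e-f] library, and its call ended there and without any 1 double-deletion library. Of 141 detoxification genes and 25 pals genes edgeR and DESeq2 called 0, with 2 and 1 higher and 19 and 1 lower at an unadjusted p below 0.05. At that limit 13.9% of all features were higher and 7.07% lower. The detoxification genes thus leaned lower in small RNA too, with a median of -0.13. Of 309 F-box genes 2 were higher and 6 lower, shares of 0.647% and 1.94% against 0.312% and 0.897% of all features, with 3 lower without the second eri-6[e-f] library. Of the most changed mRNAs, irg-2, an infection response gene at -3.06 ± 0.49 in mRNA, had 0.225 to 0.573 CPM of small RNA in double-deletion animals and 0.241 to 0.396 CPM in eri-6[e-f] animals.

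Whether the difference depended on mut-16 was tested as an interaction with the same pair of strains lacking mut-16. It passed the same thresholds for 907 small RNA features, 5.9%, and for 4619 mRNA features, 30%. On sosi-1 the interaction was -2.41 in small RNA, and on eri.67 it was -3.63 in small RNA and -2.52 in mRNA, where a negative value means that the log2 difference was lower with mut-16 intact. sosi-1 is deleted in the double deletion with and without mut-16, and had 16, 25 and 7 counts there with mut-16 intact. Its interaction therefore sets residual reads on a deleted gene against its level in the eri-6[e-f] strains. For nlp-40 small RNA the interaction was 2.33 ± 0.42 and for T05G5.4 it was -5.65.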

How the data were processed

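Per the labels' protocols, small RNA of 18 to 30 nt and oligo-dT selected mRNA were read from the same strains. The authors deposited expected counts for each gene name, not normalized. cutadapt, HISAT2 and Salmon appear in the submitters' processing notes. Not given in the sources used here were their versions and roles, the build, the annotation and the strand setting, so sense and antisense reads of a gene cannot be told apart. Entries that repeat a name were summed, and the names concerned held 4.53% to 5.57% of a library's counts. Of 46003 names 45682 matched the RefSeq gene table and 321 did not. The files hold 0 per-sample columns of other series.

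Counts were rounded to whole numbers and fitted in R 4.3.3 with edgeR 4.0.16 (filterByExpr, TMM, quasi-likelihood), separately for each assay and with all 8 strains of 24 libraries sharing the estimate of spread. Features were called at a Benjamini-Hochberg adjusted p below 0.05 and a 2-fold difference. The fold bound against a group at 0 used a floor of 3 counts over the group, which covers counting error only. Levels are CPM, and 0.1 CPM was added on log axes and in library medians only. Alternatives were DESeq2 1.42.0, RLE, library size or microRNA scaling (without mir-8203), no filter, other sets of libraries, replicate blocks, leaving out each library, no fold limit and, added after the data were seen, thinning all libraries to equal depth.

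The members and gene lists were chosen with earlier results of these data known, and the lists of ERGO-1 and WAGO targets were recalled from memory. The text names the locus entries; per assay the 15 largest and 15 smallest called differences without overlap and with a mean of at least 10 CPM in small RNA or 5 CPM in mRNA; up to 6 features per direction pair called in both assays; up to 4 members per list and assay, and any pathway member needed; and the 5 largest interactions. Names outside this rule (such as F31E9.11, col-119, nas-37, T05E12.8 and the low-level features called in both assays) were chosen after their values were seen. The 5 largest interactions per assay were ranked only among features called with mut-16 intact.

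On simulated counts with known changes, mRNA calls recovered 16 of 50 genes lowered 2-fold and 22 of 50 raised 2-fold, and 49 and 50 of 50 at 4-fold, with 1 call among 13491 unchanged genes. Small RNA calls recovered 31 of 50 and 21 of 50 at 2-fold and 50 of 50 at 4-fold in either direction, with 4 calls among 14208 unchanged genes. The changes were placed only in genes above 1 CPM in eri-6[e-f]. All strains otherwise shared the same mean, and no library was made to deviate. Recovery at lower levels and false calls that rest on a deviant library were therefore not tested.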

Additional observations from a re-analysis of the deposited data

Results flagged for a closer look

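These results were singled out because the difference between the double deletion and eri-6[e-f] depended on mut-16, by a test of the interaction in the fit of 8 strains. Values are the log2 difference with mut-16 intact minus the log2 difference without it. The interaction passed for 907 small RNA features and for 4619 mRNA features. At the deleted locus it was -2.41 for sosi-1 small RNA, -3.63 for eri.67 small RNA, -2.52 for eri.67 mRNA and 2.45 for eri6.1 mRNA, and for mut-16 mRNA it was -1.33. The sosi-1 value rests on residual reads, since the gene is deleted in the double deletion with and without mut-16. The further features given were taken only from those also called with mut-16 intact. That choice rests on a difference that also enters the interaction. Among them T05G5.4 had a small RNA interaction of -5.65.

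Other large small RNA interactions of features called with mut-16 intact were -7.18 for B0205.14, -6.25 for C04F12.7, -7.25 for K11E4.11 and 8.47 for T25D1.4. In mRNA they were -6.29 for F31C3.13, 6.45 for Y46G5A.38, 6.47 for Y69E1A.8, 6.53 for col-128 and -9.81 for cyp-13A11. Most of these rest on counts at or near 0 in at least 1 strain, so the fitted values give no bound on a fold.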

How the results depend on the processing

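In small RNA, where 48 features were higher and 138 lower, leaving out 1 library gave 29 to 42 higher (29 without the second eri-6[e-f] library) and 85 to 147 lower (85 and 89 without the first or second double-deletion library). Scaling to microRNA counts gave 3 and 1, the adjusted p alone 1153 and 386, no filter 276 lower, and equal depth 31 higher. In mRNA, where 1341 were higher and 1595 lower, library size gave 654 higher, the 2 strains alone 503 higher, and the adjusted p alone 2965 and 2631; leaving out 1 library gave 1019 to 1917 higher and 1184 to 2094 lower. Of features called in both assays (7 higher in both, 2 with more small RNA and less mRNA, 10 with less small RNA and more mRNA, 19 lower in both), the adjusted p alone gave 386, 82, 75 and 40. The 2 strains alone gave 3 higher in both and 5 with less small RNA and more mRNA, library size 4 higher in both and 1 with more small RNA and less mRNA, and DESeq2 1 with more small RNA and less mRNA and 9 lower in both. Leaving out 1 library gave 5 to 7, 0 to 4, 4 to 8 and 4 to 20 in that order, with 4 lower in both without the second eri-6[e-f] library and 7 and 6 without the first or second double-deletion library. The cause of these shifts was not tested. No called feature named here changed sign in the leave-one-out fits, and the interaction counts moved by less than 1.5 times. Values that passed no test did change sign. The mRNA share of pseudogenes differed by -0.00239 percentage points and by -0.0156 to 0.00447 with 1 library left out, and that of unmatched names by -0.118 and by -0.312 to 0.0491. Among mRNA calls, lower ones were more numerous, but RLE gave 1529 higher and 1460 lower and DESeq2 1496 and 1472.

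The replicate numbers did not pair the samples. Same-numbered libraries had deviations correlated at -0.024 to 0.035 in small RNA and at -0.431 to -0.163 in mRNA, and not every library correlated best with its own number. A replicate block in the fit of 2 strains gave 126 higher and 783 lower in mRNA, and 48 and 201 in small RNA. With the block in the fit of 8 strains the counts were 1399 and 1563 in mRNA and 46 and 130 in small RNA. In mRNA the depth and the strain cannot be told apart. At equal depth 1109 were higher and 1480 lower.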
